A study of Mus musculus with 26 samples.

Results

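The effect of destabilization of the medial meniscus (DMM) on the mouse joint transcriptome was compared between 2 and 4 weeks after surgery, as the DMM minus sham difference at 2 weeks minus the DMM minus sham difference at 4 weeks. The 11 arrays of the 4 groups involved were taken by their sample titles from the 26 arrays of the time course. They comprised 2 DMM and 3 sham pools at 2 weeks, and 3 DMM and 3 sham pools at 4 weeks. The question was whether the response to instability differed between the early weeks, and which genes changed at 2 weeks only, at 4 weeks only or at both.

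The animals of all 4 groups were C57BL/6 males, aged 12 weeks at surgery, so the joints at 2 weeks came from 14-week-old and those at 4 weeks from 16-week-old animals. DMM joints had the ligament that anchors the medial meniscus cut, and sham joints had a control operation. No transgene was involved. Each array held RNA pooled from 3 mice and extracted from a block of the medial compartment, with the meniscus, the capsule and its synovial lining, and the cartilage and bone of both joint surfaces. DMM replicate 1 at 2 weeks was not run because its RNA was not intact enough. Replication is therefore between pools, single mice were not measured, and in tissue of this kind fewer cells of a type and less RNA per cell cannot be told apart.

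DMM is the standard surgical model of post-traumatic osteoarthritis in mice. Cutting the meniscal ligament lets the meniscus extrude under load, and the joint goes on to osteophyte formation at the margins and slow loss of cartilage. Sham surgery serves as the control for the operation itself at each time.

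Values are log2 array signals, and a ratio is a difference of mean log2 signals, where 1 stands for a 2-fold difference. Array medians lay between 7.91 and 7.95 in the 11 pools. Pools of a group correlated at 0.985 (DMM) and 0.951 to 0.982 (sham) at 2 weeks, and at 0.973 to 0.988 (DMM) and 0.988 to 0.991 (sham) at 4 weeks. Of 38 marker genes of the cell types expected in the block, 33 were measured above the median signal, with bone marrow genes such as Ngp (15.12 to 15.6) and Camp (14.84 to 15.39) and the chondrocyte gene Col2a1 (12.59 to 14.19) among the brightest. Skeletal muscle varied most: the mean of 29 muscle genes was 11.69 and 10.4 in the DMM pools and 12.26, 10.98 and 9.28 in the sham pools at 2 weeks, against 11.11, 10.35 and 10.91 (DMM) and 11.48, 11.49 and 11.4 (sham) at 4 weeks. The deposited table carries no scan date or other batch.

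No probe set passed the test for a different DMM effect at 2 and 4 weeks. In limma, 0 of 22489 probe sets (0%) had an adjusted p under 0.05 for the change of the effect, and the smallest adjusted p was 0.771. At an unadjusted p under 0.05 there were 1111 probe sets (4.94%), 370 with a higher ratio at 2 weeks and 741 with a lower one. The change of a typical probe set had a standard error of 0.14 and an unadjusted 95% margin of 0.29 to either side. That margin is not the limit of detection, as adjustment over 22489 probe sets asks for larger changes. A change of -0.66 with a standard error of 0.13 (1442322_at) was not called. The count of 0 was the same under each of the 20 other settings tried, which gave 491 to 2415 features at an unadjusted p under 0.05.

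Within each week the number of differences was far from equal. DMM joints differed from sham joints in 559 probe sets (2.49%) at 2 weeks, 374 higher (1.66%) and 185 lower (0.823%), and in 4298 (19.1%) at 4 weeks, 2792 higher (12.4%) and 1506 lower (6.7%). With each array centred on its median, the split at 4 weeks was 2291 higher and 2355 lower. These counts are not a comparison of the weeks, because the ratio at 2 weeks rests on 2 DMM pools. Its standard error was 1.12 times that at 4 weeks, a factor set by the pool numbers, as all groups share 1 estimate of the spread. It does not measure the spread within each week: sham pools correlated from 0.951 at 2 weeks and from 0.988 at 4 weeks. They also hang on single pools: at 2 weeks, omitting DMM replicate 3 or sham replicate 1 left 0 calls (3586 and 2512 with unadjusted p under 0.05), omitting DMM replicate 2 left 101, and omitting sham replicate 2 or 3 gave 875 or 1768. At 4 weeks, omitting DMM replicate 2 or 3 left 1759 or 2222, and omitting sham replicate 2 left 1581.

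The effects at 2 and 4 weeks, which share no arrays, ran mostly in the same direction. Across 11511 genes, each represented by its brightest probe set, the ratios at 2 and 4 weeks correlated with a Pearson r of 0.79, and 8977 genes (78%) had the same sign in both weeks. Genes are not independent replicates, and the correlation is given as a description. Of genes, 334 (2.9%) were called at 2 weeks and 2338 (20.3%) at 4 weeks, and 258 were called in both weeks in 1 direction, 208 higher and 50 lower. That was 77.2% of the genes called at 2 weeks and 11% of those called at 4 weeks. A further 76 genes were called at 2 weeks only and 2080 at 4 weeks only, and no named gene was called in opposite directions.

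**Figure D1:**
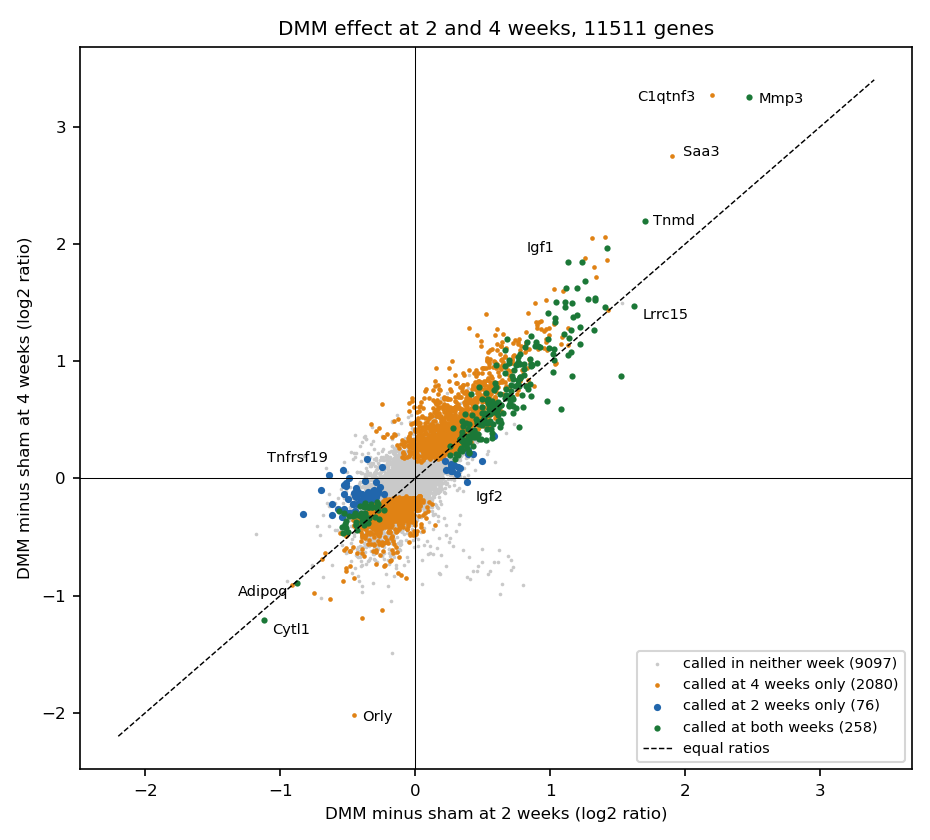
DMM minus sham log2 ratio at 2 weeks (x axis) and at 4 weeks (y axis) for 11511 genes, 1 point per gene, coloured by the week in which the gene was called, with the line of equal ratios dashed. The 258 genes called at both weeks lie along the dashed line, and 1252 of the 1314 genes called higher at 4 weeks only also have a ratio above 0 at 2 weeks.

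Ranked by the mean of the ratios at 2 and 4 weeks, the 8 highest of the 208 genes called higher in both weeks were Mmp3, Tnmd, Igf1, Lrrc15, Matn2, Gpm6b, Bnc2 and Itgbl1. Mmp3 (probe set 1418945_at), stromelysin 1, which cleaves proteoglycans and activates procollagenases, was at 13.43 and 13.02 in the DMM pools at 2 weeks, against 9.88, 12.01 and 10.38 in the sham pools. At 4 weeks it was at 12.02, 14.57 and 12.68 in the DMM pools, against 9.68, 9.15 and 10.67 in the sham pools. In both weeks each DMM pool lay above each sham pool, and the sham pool nearest to them was replicate 2 at 2 weeks. The ratio was 2.47 ± 0.58 (SE, adjusted p = 0.0332 in limma) in the earlier week and 3.26 ± 0.52 (adjusted p = 0.000827) in the later one. The change of the effect was -0.79, with a 95% interval of -2.40 to 0.83, which is wide enough to hold both no change and a change of several fold. Without DMM replicate 2 at 4 weeks the change was -0.05, without sham replicate 2 at 2 weeks -0.16, and without DMM replicate 1 at 4 weeks -1.32.

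Tnmd (1417979_at), tenomodulin, a membrane protein of tendon and ligament cells, was at 11.61 and 12.27 in DMM pools and at 9.54, 10.96 and 10.21 in sham pools at 2 weeks. At 4 weeks it was at 10.54, 10.86 and 11.57 in DMM pools and at 8.71, 8.2 and 9.47 in sham pools. The ratios were 1.70 ± 0.38 and 2.20 ± 0.34, and the change was -0.49 (95% interval -1.54 to 0.56), or between -0.84 and -0.13 with 1 pool left out (without sham replicates 1 and 2 at 2 weeks). Its mean signal was lower at 4 than at 2 weeks in both surgical groups, a difference that was called in sham joints only. Igf1 (1437401_at), the growth factor that drives matrix synthesis in cartilage and bone, was at 13.53 and 13.3 in DMM pools and at 11.53, 12.62 and 12.69 in sham pools at 2 weeks, against 12.54, 13.16 and 13.04 (DMM) and 11.26, 10.41 and 11.54 (sham) at 4 weeks. Its ratio was 1.13 ± 0.30 at 2 weeks and 1.84 ± 0.27 at 4 weeks, a change of -0.71 (95% interval -1.54 to 0.12) that ran between -1.09 (without sham replicate 1 at 2 weeks) and -0.38 (without sham replicate 2 at 4 weeks) with 1 pool left out.

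Lrrc15 (1453214_at), a leucine-rich membrane protein of activated fibroblasts, was at 10.09 and 11 in DMM pools and at 8.23, 9.73 and 8.81 in sham pools at 2 weeks. At 4 weeks it was at 8.92, 9.2 and 9.67 in DMM pools. In sham pools of that week it was at 7.84, 7.51 and 8.04, close to the median of all probe sets, 7.93. Of these 8 it alone had the larger ratio at 2 weeks, 1.62 ± 0.32 against 1.47 ± 0.28 at 4 weeks, and the change of 0.15 (95% interval -0.74 to 1.04) did not pass the test. The other 4 of the 8 were Matn2, a matrilin that bridges matrix filaments, Gpm6b, a membrane proteolipid, Bnc2, a zinc finger protein of mesenchymal cells, and Itgbl1, an integrin beta-like secreted protein. Their ratios lay between 1.24 (Gpm6b) and 1.42 (Matn2) at 2 weeks and between 1.54 (Itgbl1) and 1.96 (Matn2) at 4 weeks. For each of the 8 the DMM pools were above all sham pools in both weeks, which holds for 14.5% of all genes at 2 weeks and 20.8% at 4 weeks (below all sham pools, 15.2% and 18.7%).

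**Figure D2:**
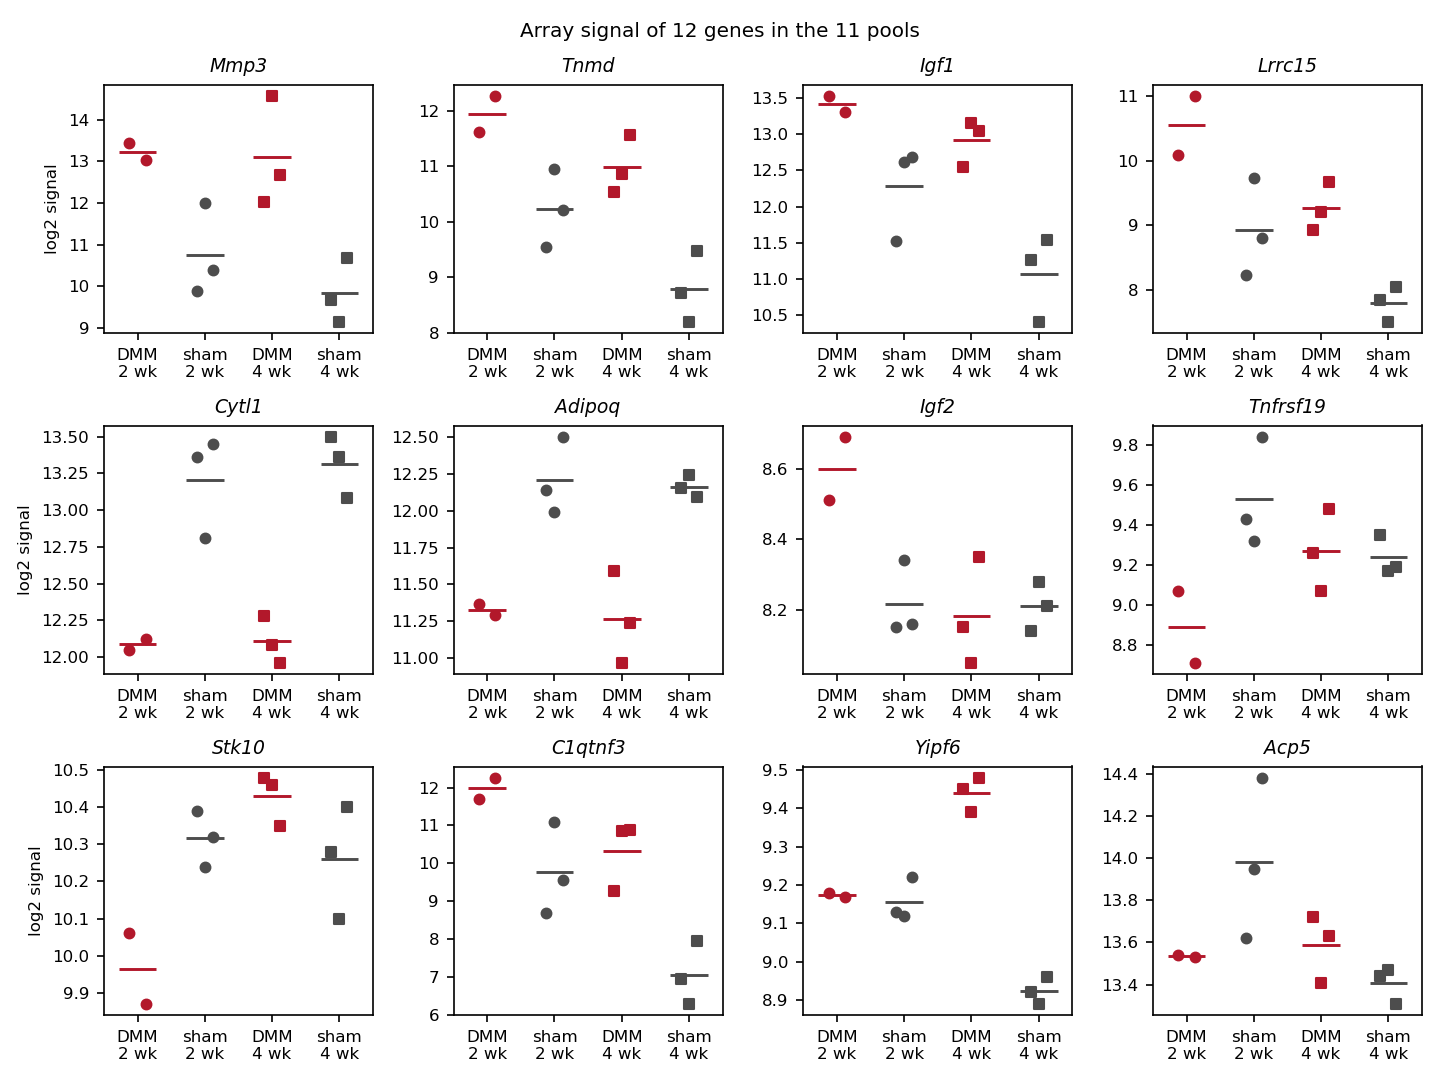
log2 array signal (y axis) of 12 genes in DMM and sham pools at 2 weeks (circles) and 4 weeks (squares), 1 point per pool, with a bar at the group mean (n = 2 DMM pools at 2 weeks and 3 pools in the other groups). Mmp3, Tnmd, Igf1 and Lrrc15 are higher and Cytl1 and Adipoq lower in all DMM pools of both weeks, while Igf2, Tnfrsf19 and Stk10 part from sham at 2 weeks and Yipf6 at 4 weeks.

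Fewer genes were lower in both weeks, and their ratios were smaller. Cytl1 (1456793_at), a secreted factor of chondrocytes, was at 12.05 and 12.12 in DMM pools and at 13.36, 12.81 and 13.45 in sham pools at 2 weeks, against 12.28, 12.08 and 11.96 (DMM) and 13.5, 13.36 and 13.08 (sham) at 4 weeks. Its ratio was -1.12 ± 0.19 and -1.21 ± 0.17, with a change of 0.08 (95% interval -0.45 to 0.62). Adipoq (1422651_at), the hormone adiponectin of fat cells, was at 11.37 and 11.29 in DMM pools and at 12.14, 11.99 and 12.5 in sham pools at 2 weeks, against 11.59, 10.97 and 11.24 (DMM) and 12.15, 12.24 and 12.09 (sham) at 4 weeks. Its ratio was -0.88 ± 0.23 and -0.89 ± 0.21, with a change of 0.01 (95% interval -0.64 to 0.67). Clec1b, a receptor of platelets and myeloid cells, had ratios of -0.54 and -0.46 and a change of -0.07 (95% interval -0.44 to 0.30), and Tesc, a calcium-binding protein, had ratios of -0.50 and -0.46 and a change of -0.04 (95% interval -0.30 to 0.21). Of all shared genes, those higher had a median ratio of 0.63 at 2 weeks and 0.65 at 4 weeks, and those lower of -0.40 and -0.32. These medians describe genes picked for passing in both weeks. In the later weeks of the course, the 208 genes higher in both weeks had median DMM to sham ratios of 0.15 at 8 weeks and 0.29 at 16 weeks, with 171 and 205 of them above 0.

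The calls at 2 weeks in this group are fragile: for the 12 shared genes taken by highest or lowest ratio and the 12 taken from those called at 2 weeks only, all 24 calls at 2 weeks were lost without sham replicate 1 or DMM replicate 3 of that week, when only the 11 arrays were fitted, and with array weights.

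Promoters are shown for Mmp3, Lrrc15 and Tnmd, which were higher in both weeks, and for Cytl1, which was lower in both. They are the 120 bases before the transcription start on the gene's strand in the RefSeq table of GRCm38.p6, in lower case, with capitals for an AP-1 motif (TGAGTCA, or TGACTCA on the other strand), the site of Fos and Jun factors, and for a TATA box (TATAAA, or TTTATA on the other strand). Mmp3 lies on chr9:7445702-7445821 (+), Lrrc15 on chr16:30283255-30283374 (-), Tnmd on chrX:133850888-133851007 (+) and Cytl1 on chr5:37735399-37735518 (+).
Mmp3: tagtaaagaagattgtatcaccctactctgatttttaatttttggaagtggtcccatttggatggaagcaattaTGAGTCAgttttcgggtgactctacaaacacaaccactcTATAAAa
Lrrc15: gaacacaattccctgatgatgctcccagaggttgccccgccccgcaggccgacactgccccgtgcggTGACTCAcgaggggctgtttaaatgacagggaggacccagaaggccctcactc
Tnmd: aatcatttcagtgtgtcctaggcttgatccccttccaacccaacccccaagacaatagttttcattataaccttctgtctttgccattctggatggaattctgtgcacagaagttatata
Cytl1: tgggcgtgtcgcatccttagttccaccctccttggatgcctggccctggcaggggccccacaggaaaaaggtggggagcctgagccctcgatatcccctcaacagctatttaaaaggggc

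The AP-1 letters began at position -46 in Mmp3 and -53 in Lrrc15, counted from the start, and these windows of Tnmd and Cytl1 held neither motif. In the 250 bases before the start, the AP-1 letters stood in 11 of the 160 promoters found for the 208 genes higher in both weeks (6.88%), in 29 of 1022 for the genes higher at 4 weeks only (2.84%), in 307 of 9302 for all genes tested (3.3%) and in 4.47% of all 27025 promoters of the table. The TATA letters stood in 10.6%, 7.73%, 7.03% and 12.9% of the same sets. AP-1 and TATA are 2 of 12 motifs counted, and were picked for display after the counts were seen.

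Among the genes called at 4 weeks only, most leaned the same way at 2 weeks. Of 2080 such genes, 1314 were higher and 766 lower, 1977 had the same sign at 2 weeks, and 1226 had at least 0.5 times the ratio there. The median ratio of the 1314 was 0.25 at 2 weeks and 0.42 at 4 weeks, and that of the 766 was -0.15 and -0.29. As they were chosen for passing at 4 weeks, a smaller ratio at 2 weeks is in part built in. For 254 of the 2080 the unadjusted p of the change was under 0.05 (12.2%, against 4.4% of all genes), and for none did the adjusted p pass.

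C1qtnf3 (1422606_at), a secreted protein of the C1q and TNF family made by cartilage and fibroblasts, was at 11.7 and 12.26 in DMM pools and at 8.69, 11.1 and 9.55 in sham pools at 2 weeks, and at 9.26, 10.86 and 10.87 in DMM pools and 6.94, 6.29 and 7.94 in sham pools at 4 weeks. The DMM pools were above the sham pools in both weeks. Its sham signals at 4 weeks lay close to or below the median of all probe sets, 7.93. Its ratios of 2.20 ± 0.68 (adjusted p = 0.083) and 3.27 ± 0.61 (adjusted p = 0.00168) gave a change of -1.07 (95% interval -2.98 to 0.84), so it was called at 4 weeks only without a detectable difference between the weeks. The change ran between -1.61 and -0.41 without sham replicates 1 and 2 at 2 weeks. Saa3, an acute phase protein of macrophages and synovial fibroblasts, was at 13.51 and 12.51 in DMM pools and at 10.71, 12.7 and 9.92 in sham pools at 2 weeks, where the groups overlap. At 4 weeks it was at 11.55, 14.76 and 11.35 in DMM pools and at 9.75, 8.93 and 10.74 in sham pools. Its ratios were 1.90 ± 0.75 and 2.75 ± 0.67 (adjusted p = 0.167 and 0.00805). DMM replicate 2 at 4 weeks stood highest for Saa3, Mmp3, Timp1 (13.31, against 11.5 and 12.19 in the other DMM pools), Tnfaip6 (11.83, against 9.75 and 9.93) and Chl1 (11.45, against 8.67 and 8.96). Without that pool the ratio of Chl1, an adhesion molecule, was 1.00 and that of Saa3 1.64, and neither was called. Timp1 is an inhibitor of metalloproteinases and Tnfaip6 a hyaluronan-binding protein of inflamed tissue. The other genes with the highest ratios at 4 weeks were Angptl1, Chl1, Kera and Cthrc1, between 1.71 (Cthrc1) and 2.06 (Angptl1) at 4 weeks and between 1.25 (Chl1) and 1.41 (Angptl1) at 2 weeks.

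The lowest ratio among genes called at 4 weeks only was that of Orly, a non-coding gene of the Y chromosome, at -0.46 ± 0.41 (adjusted p = 0.611) in the earlier week and -2.02 ± 0.36 (adjusted p = 0.00134) in the later. It was at 8.16 and 8.56 in DMM pools and at 8.88, 9.3 and 8.27 in sham pools at 2 weeks, and at 8.14, 8.11 and 8.29 in DMM pools and 10.11, 10.77 and 9.71 in sham pools at 4 weeks. The 3 sham pools at 4 weeks stood above the other 8 pools. Ntmt1, a protein methyltransferase, had the same arrangement, with 9.31, 10.02 and 9.19 in those sham pools and 8.08 to 9.06 in the other 8. The changes of 1.56 (95% interval 0.43 to 2.69) and 0.88 (95% interval 0.11 to 1.65) did not pass adjustment (adjusted p over 22489 probe sets). Psg28, Cdh6, Ighm, Tmem45b, Ces1d and Zfp184 followed, between -0.85 (Zfp184) and -1.19 (Psg28) at 4 weeks. For Ighm, the heavy chain of IgM, the mean of its tested probe sets gave a ratio of 0.53 at 4 weeks in place of -0.97, so its direction rests on the choice of probe set.

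Among the genes called at 2 weeks only, 58 were lower and 18 higher. Among those called in both weeks, 50 were lower and 208 higher. The shares of all genes called at 2 weeks were 0.938% lower and 1.96% higher. Without sham replicate 1 at 2 weeks, the probe sets called at 2 weeks only went from 135 to 0. The 18 had a median ratio of 0.31 at 2 weeks and 0.11 at 4 weeks, and the 58 of -0.40 and -0.15. For 70 of the 76 the sign was the same at 4 weeks. For 27 the unadjusted p of the change was under 0.05 (35.5%, against 4.4% of all genes). As these genes were chosen by the call at 2 weeks, a larger ratio there is in part built in. Igf2 (1448152_at), the growth factor active mainly before birth, was at 8.51 and 8.69 in DMM pools at 2 weeks and between 8.05 and 8.35 in the other 9 pools. Its ratios were 0.39 ± 0.08 (adjusted p = 0.0261) and -0.03 ± 0.07 (adjusted p = 0.809) in the earlier and later week, and the change of 0.42 (95% interval 0.18 to 0.65) had an unadjusted p of 0.00124. The signal of Igf2 was close to the median of all probe sets, 7.93.

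The other genes higher at 2 weeks only carried small ratios. Oaf, a secreted protein, was at 10.32 and 10.3 in DMM pools and at 9.64, 9.96 and 9.84 in sham pools at 2 weeks, with ratios of 0.49 at 2 weeks and 0.15 at 4 weeks. Capn2, a calcium-dependent protease, had ratios of 0.43 and 0.21. Kif21a, a kinesin motor, Epcam, an epithelial adhesion molecule, Bmf, a pro-apoptotic protein, and Tlcd3a lay between 0.39 and 0.58 at 2 weeks and between 0.21 and 0.37 at 4 weeks. The interval of the change held 0 for each of these but Oaf (0.34, 95% interval 0.05 to 0.64).

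The largest fall at 2 weeks only was that of Epx, the peroxidase of eosinophils, at 10.29 in both DMM pools and 11.11, 10.67 and 11.58 in sham pools, with ratios of -0.83 ± 0.21 (adjusted p = 0.0446) and, at 4 weeks, -0.30 ± 0.19 (adjusted p = 0.276). Dapk2, a death-associated kinase of granulocytes and other cells, was at 8.97 and 8.68 in DMM pools and at 9.64, 9.43 and 9.5 in sham pools at 2 weeks, and at 9.62, 9.33 and 9.38 in DMM pools and 9.46, 9.6 and 9.57 in sham pools at 4 weeks. Its ratios were -0.70 ± 0.13 and -0.10 ± 0.12. Tnfrsf19 (1448147_at), a receptor of the TNF family found on mesenchymal and stem cells, was at 9.07 and 8.71 in DMM pools and at 9.43, 9.32 and 9.84 in sham pools at 2 weeks, and at 9.26, 9.07 and 9.48 in DMM pools and 9.35, 9.17 and 9.19 in sham pools at 4 weeks. Its ratios were -0.64 ± 0.16 and 0.03 ± 0.14. The changes were -0.60 for Dapk2 (95% interval -0.96 to -0.24) and -0.67 for Tnfrsf19 (95% interval -1.11 to -0.22), and neither passed adjustment. Stil, a centriole protein, Cadm1, an adhesion molecule, and Rac2, the GTPase of blood cells, had ratios between -0.57 and -0.62 at 2 weeks and between -0.22 and -0.31 at 4 weeks, with intervals of the change that held 0.

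**Figure D3:**
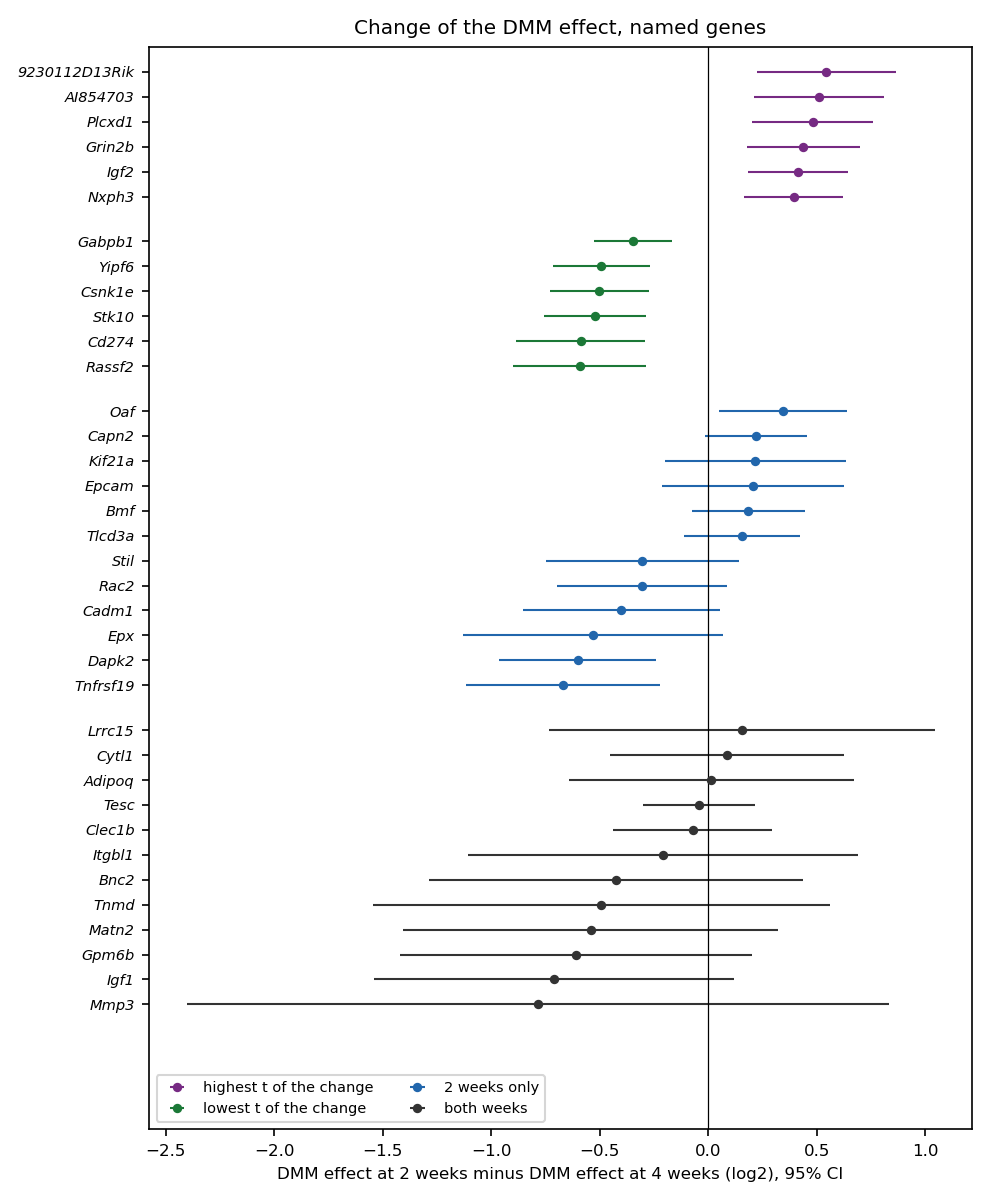
Change of the DMM effect (ratio at 2 weeks minus ratio at 4 weeks, log2, x axis) with its 95% confidence interval for named genes, grouped as the 6 highest and 6 lowest moderated t values of the change, 12 genes called at 2 weeks only and 12 called at both weeks. The intervals of the 12 genes called at both weeks all hold 0, and none of the 36 changes passed adjustment.

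Ranked by the test of the change itself, the ends of the list held genes of small but even differences. The lowest were Stk10, Csnk1e, Yipf6, Cd274, Rassf2 and Gabpb1, with changes between -0.35 (Gabpb1) and -0.59 (Rassf2) and unadjusted p values between 0.000155 (Stk10) and 0.000677 (Gabpb1). Stk10 (1417751_at), a kinase of lymphocytes, was at 10.06 and 9.87 in DMM pools and at 10.39, 10.24 and 10.32 in sham pools at 2 weeks, and at 10.48, 10.46 and 10.35 in DMM pools and 10.28, 10.1 and 10.4 in sham pools at 4 weeks. Yipf6 (1455111_at), a Golgi membrane protein, was at 9.18 and 9.17 in DMM pools and at 9.13, 9.12 and 9.22 in sham pools at 2 weeks, and at 9.45, 9.39 and 9.48 in DMM pools and 8.92, 8.89 and 8.96 in sham pools at 4 weeks. Stk10 thus parted at 2 weeks and Yipf6 at 4 weeks, with ratios of -0.36 and 0.17 for Stk10 and 0.02 and 0.51 for Yipf6. Cd274, the immune checkpoint ligand PD-L1, had ratios of -0.24 and 0.35 with all DMM pools below sham at 2 weeks and above it at 4 weeks, but a signal near the lower limit of the test (7.61 to 8.09). The highest were Igf2, Nxph3, Plcxd1, AI854703, 9230112D13Rik and Grin2b, with changes between 0.39 (Nxph3) and 0.54 (9230112D13Rik). Apart from Igf2, these 5 were called lower at 4 weeks only, with ratios at 4 weeks between -0.40 and -0.48. One probe set without a gene name (1442322_at) was called in opposite directions, -0.41 ± 0.10 (adjusted p = 0.033) and, at 4 weeks, 0.25 ± 0.09 (adjusted p = 0.0494). Its change of -0.66 (95% interval -0.93 to -0.39) had the smallest unadjusted p of all, 4.79e-05.

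Collagens were the list with the most calls in each week. The list is labelled fibrillar and fibril-associated, but also holds collagens of other classes (Col6a1, Col8a2 and Col15a1). Of its 17 genes, 7 were called higher at 2 weeks and 15 at 4 weeks, against 1.96% and 13.2% of all genes. None was called lower. The 7 were Col5a1, Col5a3, Col6a1, Col8a2, Col12a1, Col15a1 and Col16a1, with ratios between 0.76 (Col16a1) and 1.20 (Col8a2) at 2 weeks and between 0.86 (Col5a3) and 1.62 (Col8a2) at 4 weeks. The brightest, Col1a2, the second chain of type I collagen, had ratios of 0.03 and -0.03, while Col3a1 had 0.29 at 2 weeks and was called at 0.61 at 4 weeks. The median ratio of the list was 0.82 at 2 weeks and 1.13 at 4 weeks, against -0.03 and -0.02 over all genes. The mean signal of the list was 12.64 and 12.8 in DMM pools and 11.47, 12.25 and 12.25 in sham pools at 2 weeks, and 11.85, 12.35 and 12.41 in DMM pools and 11.27, 10.9 and 11.28 in sham pools at 4 weeks. The 7 calls at 2 weeks went to 0 without DMM replicate 2 or 3 or sham replicate 1 of that week, to 11 without sham replicate 3 and to 12 with the muscle mean as a covariate. Every DMM pool was above every sham pool of its week in the list mean. Sham replicate 1 at 2 weeks, which had the highest muscle mean (12.26), had the lowest collagen mean of its group. Sham replicates 2 and 3 of that week had muscle means of 10.98 and 9.28 and collagen means of 12.25 each. The cause of the lower collagen mean was not tested.

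Other groups of matrix and fibroblast genes followed the same order, with few calls at 2 weeks and many at 4 weeks. All genes tested showed this order too, so it is not particular to these lists. Of all genes, 1.96% were called higher in the earlier week and 13.2% in the later one. Falls were called for 7.09% of all genes in the later week. Of 18 matricellular and tendon genes, 5 were called higher at 2 weeks (Tnmd, Thbs2, Thbs3, Tnn and Ccn5) and 13 at 4 weeks. Of 16 genes of collagen folding and cross-linking, 2 (Plod1 and Loxl3) were higher at 2 weeks and 13 at 4 weeks, and Pcolce2, an enhancer of procollagen processing, was lower at 4 weeks (-0.55). Of 13 activated fibroblast genes 2 (Lrrc15 and Thy1) and 11 were higher, and of 16 mesenchymal transcription factors 1 (Nfatc4) and 13. Of 12 metalloproteinase and TIMP genes only Mmp3 was higher at 2 weeks, and 7 were higher and 1 (Mmp8, collagenase of neutrophils) lower at 4 weeks. Of 13 ADAMTS, ADAM and HtrA proteases, Adam9 was higher at 2 weeks and 9 at 4 weeks, while the aggrecanase Adamts5 had ratios of 0.03 and 0.38 that did not pass. Without sham replicate 1 at 2 weeks, 0 genes of the matricellular, folding, fibroblast, transcription factor and metalloproteinase lists were called in that week, and without sham replicate 3 there were 8 folding, 9 fibroblast, 6 transcription factor and 5 metalloproteinase genes. At 4 weeks the matricellular count was 7 without sham replicate 2 and 8 without DMM replicate 3, and the transcription factor count was 8 without sham replicate 2. Median ratios of these lists lay between 0.26 (mesenchymal transcription factors) and 0.52 (activated fibroblast) at 2 weeks and between 0.52 (ADAMTS, ADAM and HtrA proteases) and 0.89 (activated fibroblast) at 4 weeks. The larger ratios at 4 weeks did not go with higher signals in DMM joints. The median difference, 2 minus 4 weeks, lay between 0.14 and 0.46 in DMM joints and between 0.4 and 0.66 in sham joints. For the collagens it was 0.57 and 0.86. Of 14 tested genes that the study took to real-time PCR, chosen from genes tested in an earlier study of the same group, 4 were higher at 2 weeks and 12 at 4 weeks. No member of any list was called for the change of the effect.

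Some signalling genes had nearly the same ratio in both weeks. Dkk3, a secreted Wnt modulator, had ratios of 1.43 and 1.44, Il33, an alarmin cytokine, of 1.41 and 1.46, Igfbp7, an IGF-binding protein, of 0.63 and 0.62, and Sost, the Wnt antagonist of osteocytes, of -0.67 and -0.64, of which Dkk3, Igfbp7 and Sost passed at 4 weeks only. Sfrp2 and Sfrp4, which bind Wnt ligands, were higher in both weeks, at 1.11 and 0.71 at 2 weeks and 1.47 and 0.80 at 4 weeks. Ptx3, a pentraxin of innate immunity, and Ccl2, a monocyte chemokine, were called in both weeks with the larger ratio at 2 weeks, 1.52 against 0.87 for Ptx3 and 0.57 against 0.35 for Ccl2, with changes of 0.65 (95% interval -0.08 to 1.38) and 0.23 (95% interval -0.14 to 0.59). Of 19 cartilage matrix genes, Cytl1 was called lower in both weeks. Chad and Acan, the core protein of aggrecan, were called at 4 weeks only, though both leaned the same way at 2 weeks. The ratios at 2 and 4 weeks were -0.37 and -0.49 for Chad and 0.50 and 0.54 for Acan. The change of Acan was -0.04 (95% interval -0.63 to 0.55). Of all genes, 0.938% were called lower at 2 weeks, and 7.09% lower and 13.2% higher at 4 weeks. The median ratio of the 19 was 0.11 at 2 weeks and 0.32 at 4 weeks, with 14 above 0 at 4 weeks.

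**Figure D4:**
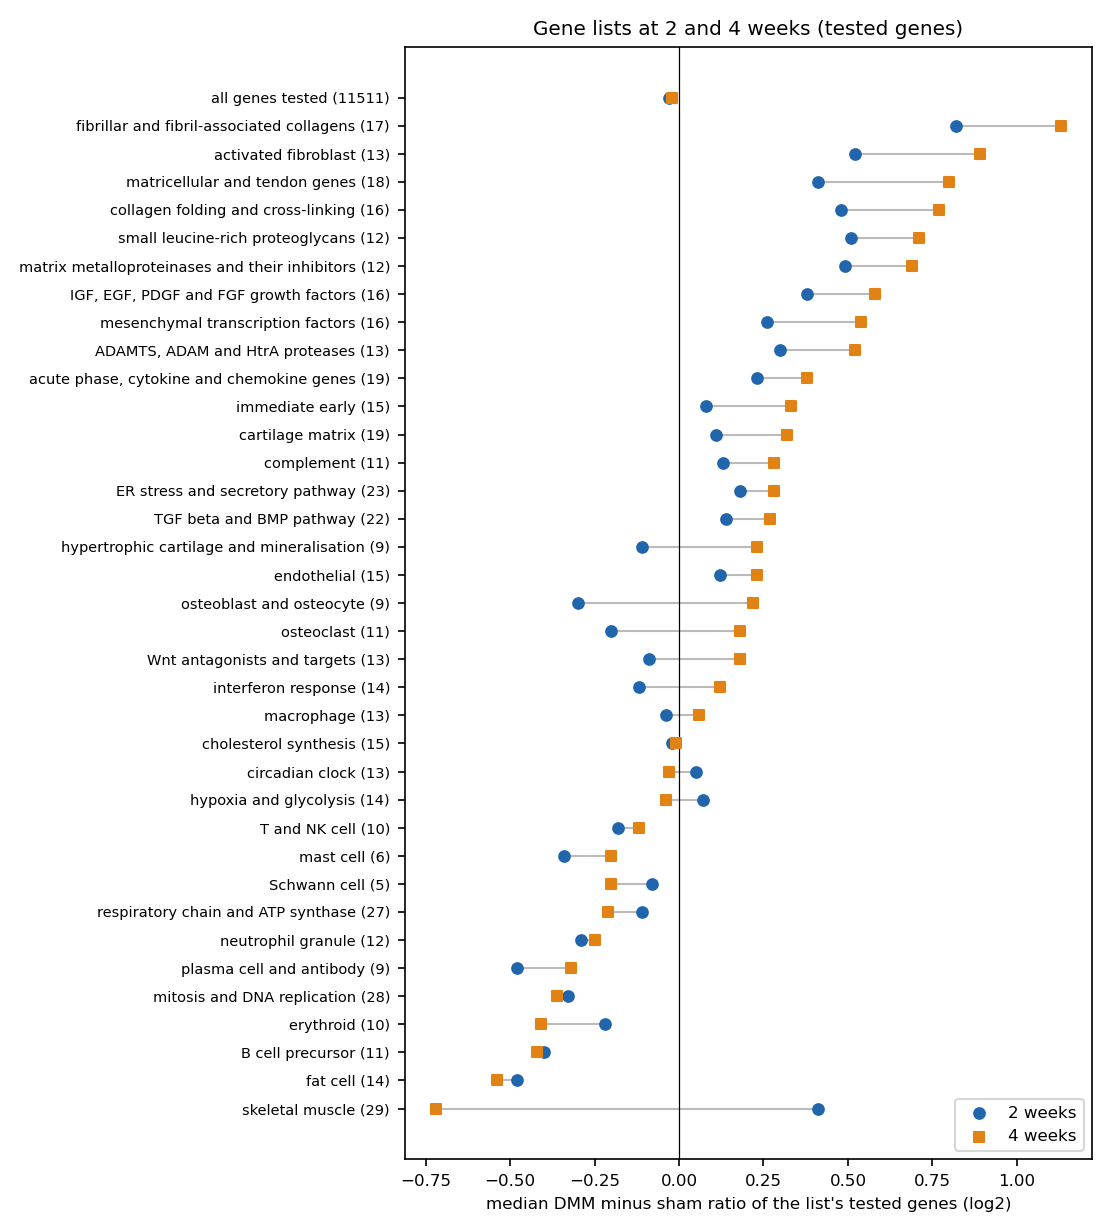
Median DMM minus sham log2 ratio (x axis) of the tested genes of 36 gene lists at 2 weeks (circles) and 4 weeks (squares), with the number of tested genes in brackets and the median of all genes at the top. Lists of matrix and fibroblast genes lie to the right in both weeks, fat cell and mitosis genes to the left in both, and skeletal muscle lies at 0.41 at 2 weeks and -0.72 at 4 weeks.

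Osteoclast genes had a median ratio of -0.20 at 2 weeks and 0.18 at 4 weeks, and no change of theirs passed adjustment. Of 11 genes, Itgb3, the integrin beta 3 of osteoclasts and platelets, was lower at 2 weeks (-0.53), and Dcstamp, the fusion protein of osteoclast precursors, and Tnfsf11, which encodes RANKL, were higher at 4 weeks (0.40 and 1.05), against 0.938% of all genes lower at 2 weeks and 13.2% higher at 4 weeks. The change was below 0 for 10 of 11 genes and had an unadjusted p under 0.05 for 4 (4.4% of all genes). Acp5, tartrate-resistant acid phosphatase, was at 13.54 and 13.53 in DMM pools and at 13.62, 13.95 and 14.38 in sham pools at 2 weeks, and at 13.72, 13.41 and 13.63 in DMM pools and 13.44, 13.47 and 13.31 in sham pools at 4 weeks. Its DMM pools were alike in both weeks, and its sham pools were higher at 2 than at 4 weeks, most of all replicate 3. The change of Acp5 was -0.63 (95% interval -1.05 to -0.21), that of Atp6v0d2, a subunit of the proton pump, -0.73 (95% interval -1.26 to -0.21), and that of Dcstamp -0.69 (95% interval -1.07 to -0.32). Medians of the same signs were not limited to osteoclast genes. They were -0.30 and 0.22 for 9 osteoblast and osteocyte genes, and -0.11 and 0.23 for 9 genes of hypertrophic cartilage and mineralisation. In each of these lists the change was below 0 for 8 genes.

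Of 14 fat cell genes 1 (Adipoq) was lower at 2 weeks and 10 at 4 weeks (0.938% and 7.09% of all genes), with medians of -0.48 and -0.54, and the list mean was 10.11 and 10.03 (DMM) and 10.62, 10.35 and 10.67 (sham) at 2 weeks, against 10.2, 9.89 and 10.04 (DMM) and 10.59, 10.63 and 10.55 (sham) at 4 weeks, with no overlap in either week. Leptin (Lep), a hormone of fat cells, had ratios of -0.09 and -0.42. Of 28 mitosis and DNA replication genes 0 were called at 2 weeks and 10 lower at 4 weeks, although all 28 were below 0 in both weeks and the medians were -0.33 and -0.36. The mitosis mean was 10.58 and 10.53 in DMM pools and 11.19, 10.88 and 10.58 in sham pools at 2 weeks, where sham replicate 3 met the DMM pools. Marrow lists leaned the same way, with medians at 2 and 4 weeks of -0.22 and -0.41 (10 erythroid genes), -0.40 and -0.42 (11 B cell precursor genes) and -0.29 and -0.25 (12 neutrophil granule genes). Of the 12 neutrophil granule genes, 3 were called lower at 4 weeks, against 7.09% of all genes, and all 12 were below 0 in both weeks. In the erythroid and B cell precursor lists 0 genes were called in either week. Of 27 respiratory chain genes 0 were called at 2 weeks and 10 lower at 4 weeks, with medians of -0.11 and -0.21. The respiratory chain mean was 11.97 and 11.75 (DMM) and 12.25, 11.9 and 11.78 (sham) at 2 weeks, against 11.95, 11.76 and 11.78 (DMM) and 12.12, 12.09 and 12.08 (sham) at 4 weeks, highest in the sham pool with the highest muscle mean (12.26) and lower in DMM pools at 4 weeks, where the muscle mean was lower too. With the muscle mean as a covariate, 9 fat cell, 5 mitosis and 9 respiratory chain genes were called at 4 weeks. These counts at 4 weeks rest on single pools: without DMM replicate 2, DMM replicate 3 or sham replicate 2 of that week they were 4, 6 and 6 for fat cell genes, 1, 1 and 1 for mitosis genes and 1, 3 and 2 for respiratory chain genes. Without sham replicate 3 at 2 weeks, 21 mitosis genes were called at 2 weeks.

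Skeletal muscle had the largest median change of the lists (1.22) and no call. Without sham replicate 3 at 2 weeks the median change was 0.28, without DMM replicate 2 it was 0.47, and without sham replicate 1 or DMM replicate 3 it was 1.96 or 1.93. Its 29 genes had a median ratio of 0.41 at 2 weeks, where 20 were above 0, and -0.72 at 4 weeks, where 1 was above 0. Ckm, muscle creatine kinase, was at 13.26 and 11.59 in DMM pools and at 13.67, 12.02 and 9.66 in sham pools at 2 weeks, and at 12.24, 12 and 12.04 in DMM pools and 13, 12.98 and 13 in sham pools at 4 weeks. At 2 weeks the DMM pools lay within the wider range of the sham pools, while at 4 weeks each DMM pool lay below each sham pool. With the muscle mean as a covariate, 1541 probe sets were called at 2 weeks, 3270 at 4 weeks and 0 for the change.

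**Figure D5:**
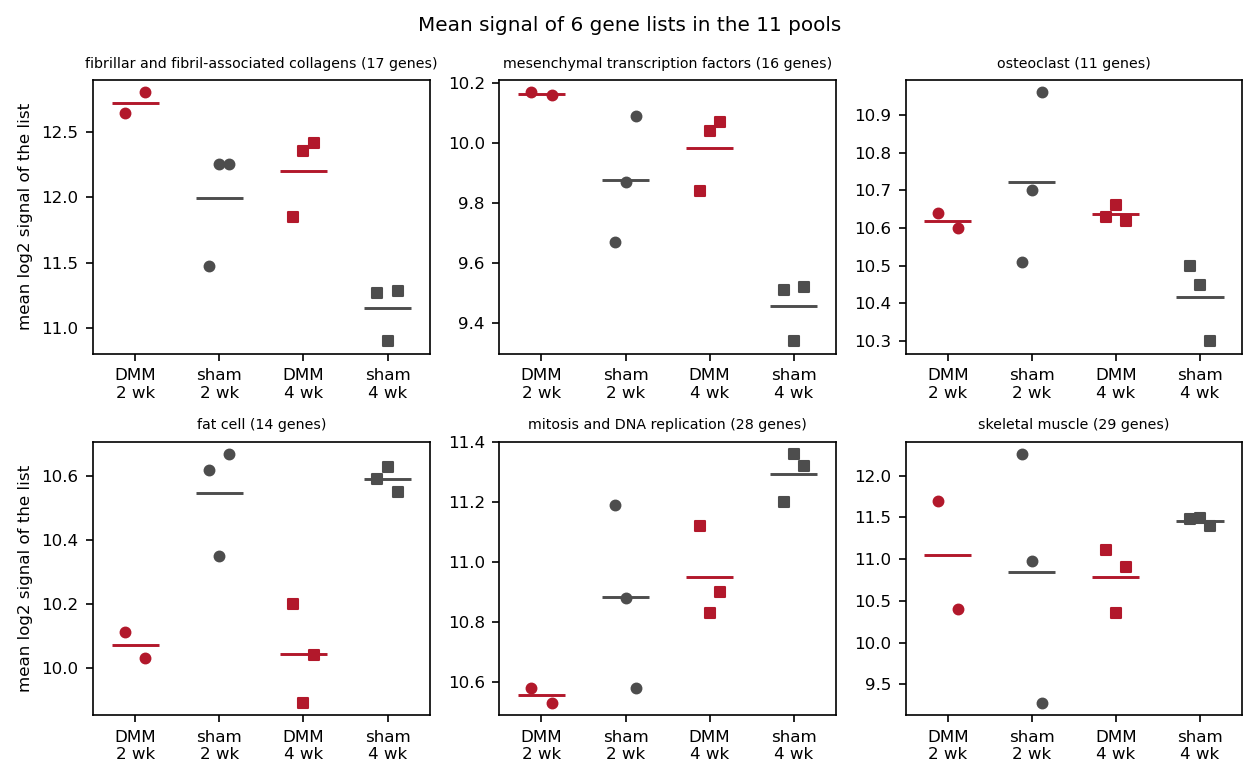
Mean log2 signal (y axis) of 6 gene lists in DMM and sham pools at 2 weeks (circles) and 4 weeks (squares), 1 point per pool, with a bar at the group mean (n = 2 DMM pools at 2 weeks and 3 pools in the other groups). Collagen genes are higher and fat cell genes lower in all DMM pools of each week, and the 3 sham pools at 2 weeks are spread more widely than those at 4 weeks for muscle (9.28 to 12.26, against 11.4 to 11.49).

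A change of the DMM effect can come from either surgical group, and the 2 weeks were therefore also compared within each. Between 2 and 4 weeks, 500 probe sets (2.22%) differed in DMM joints, 128 higher (0.569%) and 372 lower (1.65%) at 2 weeks, and 2490 (11.1%) differed in sham joints, 1531 higher (6.81%) and 959 lower (4.26%) at 2 weeks. With each array centred on its median the split in DMM joints was 134 higher and 137 lower. Both comparisons use the arrays of the DMM effects above, so the values of members are set side by side only. The sham difference between the weeks was 1.44 for Tnmd, 1.21 for Igf1, 1.13 for Lrrc15 and 2.72 for C1qtnf3, each called, and the DMM difference was 0.95, 0.50, 1.28 and 1.65, called for Lrrc15 only. For Cytl1 and Adipoq both differences lay between -0.11 and 0.07. For Igf2 and Oaf the difference lay in DMM joints, at 0.42 and 0.54 (both called), against 0.01 and 0.20 in sham joints, and likewise for Dapk2 and Stk10, at -0.62 and -0.47 (both called), against -0.02 and 0.06. The DMM count was 0 when DMM replicate 3 at 2 weeks was omitted (2696 with unadjusted p under 0.05), 262 when DMM replicate 2 was, and 10, 309 and 294 when DMM replicate 1, 2 or 3 at 4 weeks was. It was 1219 and 865 when sham replicate 1 or 3 at 2 weeks was omitted. The sham count was 0 when sham replicate 2 or 3 at 2 weeks or sham replicate 2 at 4 weeks was omitted (5379, 3686 and 4699 with unadjusted p under 0.05), 1183 when sham replicate 3 at 4 weeks was, and 6310 when sham replicate 1 at 2 weeks was.

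Ratios were also counted by size alone, with no test. In 488 probe sets (2.17%) at 2 weeks and 585 (2.6%) at 4 weeks, every DMM pool lay at least 0.5 beyond the sham mean on the same side. Of these, 281 were higher and 16 lower in both weeks, 191 passed at 2 weeks only and 288 at 4 weeks only, and 0 passed in opposite directions. The rule asks 2 pools to agree at 2 weeks and 3 at 4 weeks.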

How the data were processed

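The table deposited by the authors holds log2 signals for 45101 probe sets of 1-colour Affymetrix mouse genome arrays, summarised from the scans and scaled between arrays by systematic variation normalization. They were used as deposited, and the summarisation software is not given in the sources used here. Probe sets with a mean above the median (7.93) were kept, without 64 controls, leaving 22489. The platform annotation gives 1 symbol to 34958 probe sets, several to 932 and none to 9211. limma 3.58.1 (R 4.3.3) was fitted with 1 coefficient per group over all 26 arrays (17 residual degrees of freedom), and calls are Benjamini-Hochberg adjusted p values under 0.05 over all probe sets. The fit was tested on simulated data. The number of pools limits the precision: the smallest exact p is 0.1 for 3 against 3 pools and 0.2 for 2 against 3. The labels do not say that pools were separate surgical batches, so p values measure the spread between pools.

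Groups, gene lists (675 entries, 543 tested) and rules were chosen with earlier results of these data known. Named genes were the 6 highest and 6 lowest t values of the change, the 6 highest and 6 lowest ratios called at 2 weeks only, the 8 highest and 8 lowest at 4 weeks only, the 8 highest and 4 lowest called in both by their mean ratio, the 2 brightest and 2 most changed of each list, and the genes of the study's real-time PCR. Other list members were named after their values were seen. Alternatives were no filter, the 11 arrays alone, a replicate block, array weights, muscle or Gapdh covariates, quantile normalization, median centring, 1 pool left out, the mean probe set per gene, and a size rule of 0.5 in every DMM pool. Promoter letters are from RefSeq (GRCm38.p6), matched by symbol for 9302 of 11511 genes.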

Additional observations from a re-analysis of the deposited data

How the results depend on the processing

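The change of the DMM effect had 0 calls under every alternative. Calls at 2 weeks (559) were 371 without a filter, 0 with the 11 arrays alone (2932 at an unadjusted p under 0.05), 358 with a replicate block, 1 with array weights and 1541 with the muscle covariate, and 0 to 1768 with 1 pool left out. Calls at 4 weeks (4298) were 1499 with the 11 arrays, 9647 (4881 higher, 4766 lower) with array weights and 585 by the size rule, and 1581 to 5553 with 1 pool left out. Probe sets called at 2 weeks only (135) were 78 without a filter, 0 with the 11 arrays or array weights, 83 with the block, 570 with the muscle and 82 with the Gapdh covariate, and 0 to 436 with 1 pool left out. Those called at 4 weeks only (3874) were 1499 with the 11 arrays, 9646 with array weights, 2299 with the muscle covariate and 288 by the size rule, and 1296 to 4993 with 1 pool left out. Those called in both weeks in 1 direction (423) were 0 with the 11 arrays, 275 with the block, 1 with array weights and 971 with the muscle covariate, and 0 to 1331 with 1 pool left out. Between the weeks, DMM joints (500) had 138 without a filter, 0 with the 11 arrays (2967 at an unadjusted p under 0.05), 839 with array weights, 1626 with the muscle covariate, 271 (134 higher, 137 lower) with centring and 0 to 1219 with 1 pool left out. Sham joints (2490) had 0 with the 11 arrays or array weights (5139 and 4278 at an unadjusted p under 0.05), 1288 with the muscle covariate and 0 to 6310 with 1 pool left out. The cause of these shifts was not tested. The weights of limma did not fully converge.

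Among named genes the change of the effect turned sign for Adipoq with array weights (-0.0758), the Gapdh covariate (-0.0154) and quantile normalization (-0.0462), and spanned -0.137 to 0.175 with 1 pool left out. It turned for Clec1b (0.14), Cytl1 (-0.0173), Saa3 (0.70, against -0.84 as reported) and Tesc (0.0854) with array weights, and for Tesc with centring (0.0049) and the mean probe set (0.0886). With 1 pool left out it spanned -0.205 to 0.0903 for Clec1b, -0.11 to 0.21 for Cytl1, -0.57 to 0.0505 for Itgbl1, -0.31 to 0.61 for Lrrc15, -1.45 to 0.26 for Saa3 and -0.13 to 0.0512 for Tesc. The ratio of Ighm at 4 weeks was 0.53 with the mean probe set. The replicate block kept 16 of 24 named calls at 2 weeks and 28 of 28 at 4 weeks. The study formed its replicate time courses by pairing pools at random. Of 10 same-numbered pairs of pools, correlations of their deviations lay between -0.19 and 0.33, and 2 exceeded 0.1. In 20 other pairs the range was -0.38 to 0.35. Deviations cancel out within a group, so these correlations are not independent and cannot decide whether the numbers pair the pools. The number of pools, 2 or 3 a group, limits the precision of every ratio.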

Other observations

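Endothelial genes, which are not described above, were not called at 2 weeks and 5 of 15 were higher at 4 weeks (13.2% of all genes). Pecam1, an adhesion molecule of the endothelium, had ratios of 0.19 at 2 weeks and 0.51 at 4 weeks (change -0.32, 95% interval -0.60 to -0.04), and Emcn, a sialomucin of capillaries and veins, had 0.24 and 0.57. Of 15 immediate early genes, 0 were called at 2 weeks and 6 were higher and 1 lower at 4 weeks (13.2% and 7.09% of all genes), with Fos at 0.40 and 1.29 and Egr1 at 0.17 and 0.65. In the hypoxia and glycolysis list, Epas1, which encodes HIF2A, had ratios of 0.03 and 0.62 (change -0.59, 95% interval -1.01 to -0.16), and Ldha, a lactate dehydrogenase, had 0.13 and -0.22 (change 0.34, 95% interval 0.11 to 0.57). None of these changes passed adjustment.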
